A study of Homo sapiens with 6 samples.

Results

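The nuclear genes of oxidative phosphorylation were followed by name in RNA sequencing of WT and PARP3-/- LN229 cells. They were taken as the protein-coding genes outside the mitochondrial chromosome named NDUFA, NDUFB, NDUFC, NDUFS or NDUFV with a number, UQCR, COX4 to COX8, ATP5, or SDHA to SDHD. The rule gave 84 of the 33841 genes listed, with 38 in complex I, 4 in complex II, 9 in complex III, 14 in complex IV and 19 in complex V. It keeps older symbols, so that NDUFA4, now regarded as a subunit of complex IV, is counted here with complex I, and it also takes in retrocopies (UQCRHL, ATP5EP2, ATP5L2) and one readthrough gene (ATP5J2-PTCD1). LN229 is a proliferating human glioblastoma cell line. The parental cells carry the genotype WT-PARP3+/+, and the compared cells lack functional PARP3 after editing with paired Cas9 nickases. PARP3 is a nuclear enzyme that attaches ADP-ribose to proteins. Each genotype was represented by 3 libraries, described as biological replicates, grown under the same conditions with no treatment. The edited cells descend from single-cell colonies, and the clone that was sequenced is not named in the sources used here, so that PARP3 loss and other properties of a clone cannot be told apart.

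Oxidative phosphorylation makes ATP in the inner mitochondrial membrane. Complexes I and II pass electrons from NADH and succinate to ubiquinone, complex III hands them to cytochrome c, complex IV gives them to oxygen, and complex V uses the resulting proton gradient to make ATP. Most subunits are encoded in the nucleus and imported, while a small set of core subunits is encoded by mitochondrial DNA, and glioma cells are known for combining high glycolysis with a working respiratory chain.

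Library totals ranged from 29692065 to 46010369 counts. PARP3 itself had 1273, 942 and 995 counts in WT libraries 1 to 3 and 574, 1004 and 736 counts in PARP3-/- libraries 1 to 3. On the depth-corrected scale of CPM, in which counts are scaled to a common library total, this was 34.9, 22.5 and 24.3 against 19.0, 22.5 and 19.5, so the groups met at 22.5 CPM (edgeR log2 fold change -0.42, SE 0.18, adjusted p = 0.307, and 0.0469 with replicate number as a block). The edit deletes an internal stretch of the gene, and counts over the whole gene include the exons that remain, so these counts do not by themselves check the labels. The glioma-expressed markers VIM, NES, CD44, S100A6 and EGFR were all present, with VIM at 3688 to 4382 CPM, whereas the astrocyte markers GFAP, AQP4 and ALDH1L1 and the markers MOG, PTPRC, EPCAM, CDH1, PECAM1, CDH5, RBFOX3 and STMN2 were under the filter on low counts. SNAP25, SYT1, MBP and CD68, which mark neurons, oligodendrocytes or leukocytes, passed it. SLC1A3, a glutamate transporter read here as a further astrocyte marker, also passed the filter, unlike the other astrocyte markers. It was the one marker called by edgeR without a block, at 7.03 to 9.14 CPM in WT and 15.4 to 16.7 in PARP3-/- cells (log2 fold change 1.01, adjusted p = 0.0051). Libraries numbered 1 stood apart in both genotypes, and the calls of subunit genes are also given without them.

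The 84 genes together took a similar share of the RNA in both genotypes, while the share differed between libraries. Their summed level was 9036, 10150 and 9752 CPM in the WT libraries and 8725, 10120 and 9906 CPM in the PARP3-/- libraries, that is 9646 ± 564.5 against 9584 ± 751.3 (SD, n = 3 each), a ratio of 0.994. The ranges of the genotypes overlapped, and library 1 was the lowest of each. The same held in each complex. Complex I subunits summed to 3062 ± 176.3 CPM in WT and 3053 ± 205.5 in PARP3-/- cells, complex II to 269.8 ± 21.3 and 274.4 ± 22.2, complex III to 1190 ± 72.6 and 1138 ± 104, complex IV to 2035 ± 69.4 and 2034 ± 136, and complex V to 3091 ± 231 and 3083 ± 283. The lowest ratio of PARP3-/- over WT was 0.956, in complex III, and the highest was 1.017, in complex II. Levels in CPM are relative to all RNA counted, so an equal share does not measure RNA per cell.

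Levels compared between genes were divided by the median length of each gene's annotated transcripts. They are given as CPM per kilobase, as the mean of the 3 WT libraries. That median need not be the length of the transcript expressed in these cells, and the order of genes depends on it. It was 3475 bases for UQCRFS1 and 623 for NDUFV1. The first 5 were ATP5A1 at 922, COX8A at 919, ATP5B at 743, COX4I1 at 543 and COX7A2 at 501. ATP5A1 and ATP5B encode the alpha and beta subunits that form the catalytic head of ATP synthase, and the others encode complex IV subunits. Within complex II the levels were 128 for SDHB and 107 for SDHC, then 82.4 for the flavoprotein SDHA and 20.3 for SDHD. UQCRFS1, the Rieske iron-sulphur protein, was the lowest complex III gene that is not a retrocopy, at 13.99 CPM per kilobase. NDUFV2, a core subunit that holds an iron-sulphur cluster, was listed at 2.97 CPM per kilobase, whereas NDUFV1, its partner in the same module, was at 416. NDUFA7, an accessory subunit, was at 1.33. Of the exon bases in GENCODE, 28.4% in NDUFV2 and 32.5% in NDUFA7 overlap another gene on the same strand. The shares were 35.4% in COX8A and 33.8% in NDUFB8, which were at 919 and 50.9 CPM per kilobase. Reads in overlaps are dropped by the counting mode used. The paper made its counts with an Ensembl annotation, so these GENCODE shares need not describe the reads that were dropped. The part of dropped reads in these levels was not tested.

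**Figure D1:**
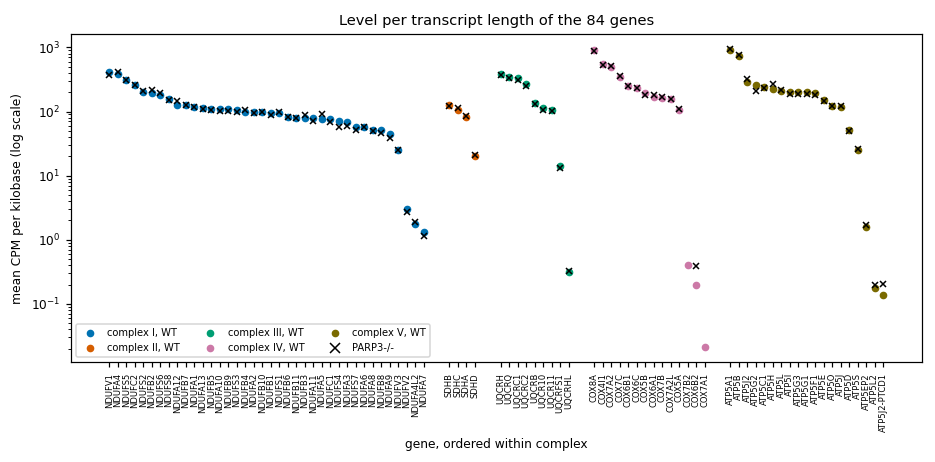
Mean level of each gene in CPM per kilobase of median annotated transcript length (log axis), ordered within complexes I to V, with circles for WT and crosses for PARP3-/- (mean of 3 libraries each). Crosses sit on or close to their circles from ATP5A1 at 922 down to COX5A at 105, and COX7A1 and COX7B2 have no cross because their count in all PARP3-/- libraries was 0.

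Where a subunit has alternative isoforms, 1 of them carried nearly all the RNA in each pair read here. NDUFA4 stood at 390 CPM per kilobase and its hypoxia-linked paralogue NDUFA4L2 at 1.76, and COX6B1 at 247 and the testis isoform COX6B2 at 0.199. The ubiquitous COX7A2 was at 501, and COX7A1, the heart and skeletal muscle isoform, had a single count in 1 WT library. COX7B was at 162 and its paralogue COX7B2 at 0.404. UQCRH, the hinge protein of complex III, was at 383 and its retrocopy UQCRHL at 0.314. The c subunit of ATP synthase, which forms the rotating ring, differed from these pairs in that 3 genes encoding the same mature protein shared its RNA. Of their summed level per length, ATP5G2 held 44.7%, 35.7% and 37.7% in the WT libraries and 40.4%, 33.5% and 34.1% in the PARP3-/- libraries. Within every replicate number the ATP5G2 share was lower in the PARP3-/- library, although the ranges overlapped. ATP5G1 held 27.4% to 32.9% in WT and 28.6% to 34.4% in PARP3-/- cells, and ATP5G3 held 27.9% to 31.8% and 31.0% to 32.4%.

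Of the 84 genes, 79 passed the filter on low counts, among 17144 genes tested. The comparison of PARP3-/- with WT asks whether loss of PARP3 alters the RNA of these subunits. By edgeR's quasi-likelihood test with Benjamini-Hochberg adjustment, 0 of the 79 were lower and 0 were higher at an adjusted p under 0.05, where 3.33% of all genes tested were lower and 1.36% higher. An unadjusted p under 0.05 was reached by 4 of them (5.06%), against 2788 (16.3%) of all genes. The median log2 fold change was -0.01, the same as over all genes, with 45 genes below 0 and 34 above, and the values ran from -0.31 to 0.25. By complex the medians were -0.02 for I, 0.06 for II, -0.04 for III, 0.02 for IV and -0.01 for V. In complex I the 7 core subunits, which carry out the electron transfer, had a median of -0.06. The other 31 genes had a median of -0.0026, and most of them encode supernumerary subunits, which surround the core. These 31 include NDUFA4, counted here with complex I, and its paralogue NDUFA4L2.

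The size of change that these data leave possible was small for most of the genes. The 95% interval of the fold change lay within 1.5-fold in either direction for 74 of the 79 (93.7%), compared with 53.5% of all genes tested. The median absolute log2 fold change was 0.0612 among them and 0.147 over all genes, and the median SE was 0.0972 and 0.157. High counts accompany these figures. Among genes with a mean count of at least 1000, the share within 1.5-fold was 98.6% of 72 subunit genes and 82.2% of 7469 genes, the median absolute log2 fold change was 0.0605 and 0.1002, and 0 and 200 (2.68%) were called by edgeR. The 5 genes whose interval went beyond 1.5-fold were NDUFA7, NDUFA4L2, UQCRHL, ATP5EP2 and ATP5J2. The first 4 of these were at 0.390 to 2.46 CPM in every library, and ATP5J2 was at 119.8, 190.6 and 171 CPM in WT and 135.5, 201.7 and 197.6 CPM in PARP3-/- cells, so its wide interval came with a low library 1 in each genotype.

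**Figure D2:**
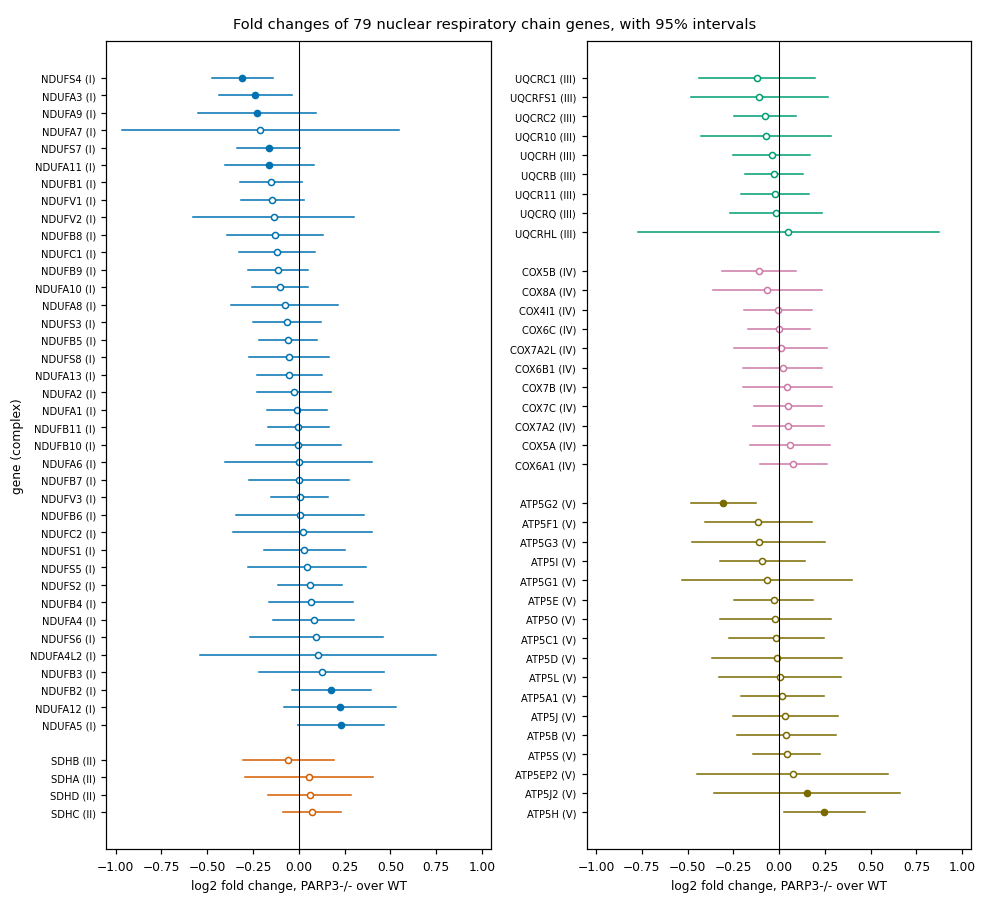
Log2 fold change (PARP3-/- over WT) of the 79 genes tested, with the 95% interval of edgeR's quasi-likelihood test, by complex (I and II left, III to V right). Filled points mark the 11 genes called when replicate number was a block, and the intervals drawn are those without the block, of which 74 lie within 1.5-fold.

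Libraries numbered 1 deviated alike in both genotypes (r = 0.788), whereas numbers 2 and 3 were not clearly paired. WT 2 correlated with PARP3-/- 3 at 0.576, above the 0.383 of WT 3 with PARP3-/- 3. A fit with replicate number as a block is given beside the main one. In that fit 6 of the 79 genes were lower (background 12.5% of genes tested) and 5 were higher (background 11.8%), that is 7.59% and 6.33%. The lower genes were NDUFS4, ATP5G2, NDUFA9, NDUFA3, NDUFS7 and NDUFA11, and the higher genes were ATP5H, NDUFA12, NDUFA5, NDUFB2 and ATP5J2. Of these 11 genes, 8 belong to complex I and 3 to complex V, and complexes II, III and IV had none. DESeq2 without the block tested 83 genes and called 3 lower (3.61%, background 3.84%) and 0 higher (background 2.09%). Without both libraries of replicate 1, a choice made after the values were seen, edgeR called 3 of 80 lower (background 10.1%) and 2 higher (background 8.91%). In 9 of the 79 all PARP3-/- libraries were below all WT libraries (11.4%, background 12.0%), 7 of them in complex I, and in 4 all were above (5.06%, background 10.8%). In none of these fits did the share of the subunit genes exceed its background.

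NDUFS4 is a small accessory subunit at the NADH-oxidising arm of complex I, on chromosome 5 (hg38 chr5:53560633-53683340). It was at 43.3, 45.6 and 45.0 CPM in the WT libraries and 34.5, 36.5 and 37.1 CPM in the PARP3-/- libraries. All 3 PARP3-/- values lay below all WT values, and the spread within each genotype was narrow (SD 1.18 and 1.35). The edgeR log2 fold change was -0.31 (SE 0.07, 95% interval -0.47 to -0.14), with an adjusted p of 0.0597 in the main fit and 0.0015 with the replicate block. The call depends on the model, since DESeq2 gave an adjusted p of 0.0254, and edgeR gave 0.0381 on protein-coding genes alone, 0.0481 on genes with a mean count of at least 50, and 0.00546 without both libraries of replicate 1.

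ATP5G2 encodes the c subunit described above (chr12:53632726-53677408). Its level was 200.2, 187.6 and 187.4 CPM in WT and 148.2, 157.6 and 160.2 CPM in PARP3-/- cells, with no overlap. The edgeR log2 fold change was -0.30 (SE 0.08), with an adjusted p of 0.0804, and 0.0025 with the block. DESeq2 gave 0.0108, and edgeR without both libraries of replicate 1 gave 0.0107. The other c subunit genes gave edgeR log2 fold changes of -0.07 (ATP5G1, SE 0.20, adjusted p = 0.94) and -0.11 (ATP5G3, SE 0.15, adjusted p = 0.825). ATP5H, subunit d of the peripheral stalk that holds the head of the enzyme still, went the other way (chr17:75038863-75046985). It was at 122.8, 142.5 and 140.4 CPM in WT and 149.4, 169.8 and 162.5 CPM in PARP3-/- cells, also with no overlap (edgeR log2 fold change 0.25, SE 0.09, adjusted p = 0.242, 0.00348 with the block and 0.0143 without replicate 1).

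NDUFA5, an accessory subunit of the matrix arm of complex I (chr7:123536997-123558255), was at 72.5, 89.8 and 87.7 CPM in WT and 94.5, 98.4 and 100.4 CPM in PARP3-/- cells. Its groups did not overlap, and the WT library 1 was the lowest value (edgeR log2 fold change 0.23, SE 0.10, adjusted p = 0.312, 0.0125 with the block and 0.0542 without replicate 1). NDUFA12, which also belongs to the matrix arm (chr12:94897055-95003770), was at 58.9, 70.1 and 67.2 CPM in WT and 63.5, 85.5 and 80.5 CPM in PARP3-/- cells. Its groups overlapped because PARP3-/- library 1 lay below WT libraries 2 and 3 (edgeR log2 fold change 0.23, SE 0.13, adjusted p = 0.478, 0.012 with the block and 0.00712 without replicate 1). The other 6 genes called with the block were named after their values were seen and had edgeR log2 fold changes with the block from -0.23 for NDUFA3 to 0.18 for NDUFB2, with adjusted p from 0.0215 to 0.0484. Without the block, the log2 fold change of ATP5J2 was 0.15 and became -0.0215 when WT replicate 1 alone was left out. That fit kept the low PARP3-/- library 1. Within replicate numbers 1 to 3 the log2 differences of ATP5J2 were 0.18, 0.08 and 0.21, and the block fit gave 0.16.

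**Figure D3:**
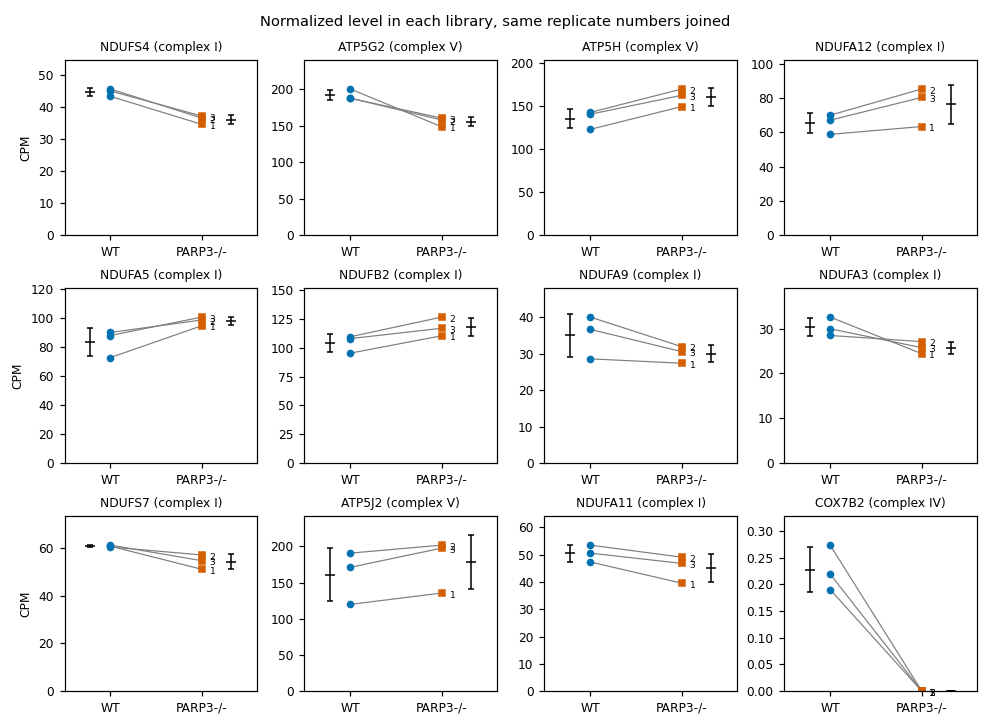
CPM (linear axis from 0) in each WT library (circles) and PARP3-/- library (squares) for the 11 genes called with replicate number as a block and for COX7B2, with lines joining the same replicate numbers and bars for mean ± SD (n = 3). NDUFS4, ATP5G2 and ATP5H separate the genotypes, whereas ATP5J2 and NDUFA11 overlap and COX7B2 stays under 0.3 CPM.

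The upstream sequences of NDUFS4, ATP5G2 and ATP5H are shown because these genes had the smallest adjusted p with the block. NRF1 and GABP are the transcription factors classically tied to respiratory chain genes, and YY1 is another. Their letters were searched on both strands as GCGCATGC for NRF1, ACTTCCGG for GABP and GCCATNTT for YY1. The longer site GCGCATGCGC holds the first of these on both strands at shifted positions, as in ATP5C1 at 22 and 20 bases before the start of transcription. RefSeq (GRCh38.p14) promoter windows of 300 bases were found for 64 of the 84 genes. Each window begins 250 bases before the start of transcription and runs past it. The NRF1 letters were in 13 of the 64 (20.3%, against 3.27% of 27305 promoters), the GABP letters in 9 (14.1%, against 4.44%) and the YY1 letters in 22 (34.4%, against 6.82%). At least 1 of the 3 was in 34 (53.1%, against 13.3%). These counts are over whole windows, including the bases after the start. The YY1 letters lay wholly before the start only in ATP5J, COX7B, NDUFA1 and NDUFS8. Each line below gives the 250 bases before the start, 5′ to 3′ on the gene's strand, with matched letters in capitals.
NDUFS4, plus strand, chr5:53560389-53560638: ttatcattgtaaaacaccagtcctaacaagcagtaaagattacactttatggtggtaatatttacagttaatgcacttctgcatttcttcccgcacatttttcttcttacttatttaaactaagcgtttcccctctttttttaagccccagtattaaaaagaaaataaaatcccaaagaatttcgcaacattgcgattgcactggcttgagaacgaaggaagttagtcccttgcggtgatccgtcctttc
ATP5G2, minus strand, chr12:53676084-53676333: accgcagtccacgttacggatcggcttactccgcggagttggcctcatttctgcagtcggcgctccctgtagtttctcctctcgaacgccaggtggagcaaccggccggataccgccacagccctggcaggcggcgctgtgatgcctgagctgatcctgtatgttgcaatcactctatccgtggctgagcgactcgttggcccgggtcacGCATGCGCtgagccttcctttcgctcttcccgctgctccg
ATP5H, minus strand, chr17:75046970-75047219: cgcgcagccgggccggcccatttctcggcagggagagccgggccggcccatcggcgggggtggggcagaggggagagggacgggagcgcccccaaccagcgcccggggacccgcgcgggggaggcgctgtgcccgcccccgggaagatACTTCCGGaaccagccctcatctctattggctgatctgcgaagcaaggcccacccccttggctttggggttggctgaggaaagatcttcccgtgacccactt
The capitals in ATP5G2 mark the NRF1 letters read on the opposite strand, 40 bases before the start, and those in ATP5H mark the GABP letters, 102 bases before it. The starts are those of RefSeq. The ATP5G2 stretch lies inside the bounds given above for that gene, not upstream of them. The NDUFS4 stretch held none of the 3 motifs. Fold changes were similar with and without the NRF1 or the GABP letters. Tested genes below 0 were 8 of 13 with the NRF1 letters and 31 of 49 without, and 6 of 9 with the GABP letters and 33 of 53 without. For the YY1 letters they were 17 of 22 with and 22 of 40 without. These differences were not tested. The median log2 fold change was -0.0158 over 13 tested genes with the NRF1 letters and -0.0249 over 49 without, -0.0249 over 9 with the GABP letters and -0.0201 over 53 without, and -0.064 over 22 with the YY1 letters and -0.0048 over 40 without. These are descriptions of letters in a window, not of binding.

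The called genes were also read beside their neighbours on the chromosome. For each gene the median log2 fold change of all other tested genes within 5 Mb was computed, leaving the subunit genes out. Around NDUFS4 it was -0.31 over 34 genes, equal to the value of NDUFS4 itself. Around ATP5G2 it was -0.20 over 213 genes, around NDUFA9 -0.20 over 108, around ATP5H 0.15 over 113, and around NDUFB2 0.15 over 54. NDUFA3, NDUFS7 and NDUFA11, all on chromosome 19, were lower in regions with medians of 0.0113 to 0.0563. Of the 11 genes called with the block, 8 had the sign of their region (72.7%), compared with 38 of the other 68 (55.9%). ATP5B, on chromosome 12 near ATP5G2, did not follow its region, with a log2 fold change of 0.04 beside a median of -0.19. Over the 79 genes Pearson's r between a gene and its region was 0.547 (Spearman's rho 0.431), and r was 0.478 without NDUFS4 and UQCRC1, the genes in the most extreme regions. These points share the same 6 libraries, and genes on the same arm share neighbours. All 4 tested genes on chromosome 7 were above 0 (median 0.17, other genes there 0.10), and 8 of 10 on chromosome 19 were below 0 (median -0.08, other genes there 0.01). The part of copy number or of other regional properties in these values was not tested.

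**Figure D4:**
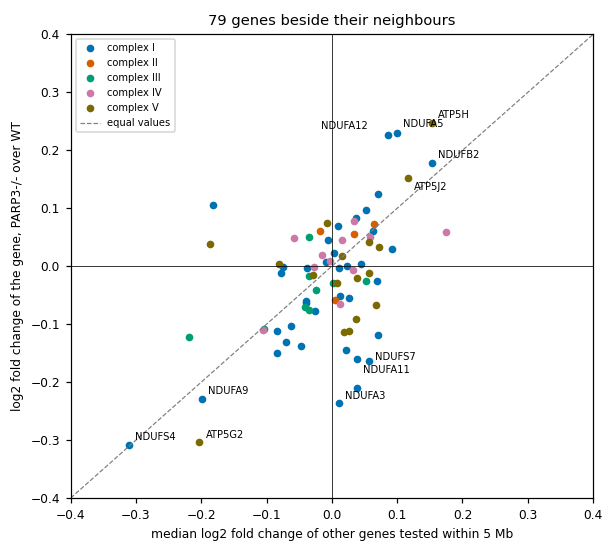
Log2 fold change of each of the 79 genes (vertical axis) against the median log2 fold change of the other tested genes within 5 Mb (horizontal axis), coloured by complex, with the dashed line marking equal values. NDUFS4 lies on the line at -0.31, and the genes called with the block are named.

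Complexes II, III and IV held no gene called by edgeR in either fit. In complex II, SDHB was at 80.0, 91.9 and 87.8 CPM in WT and 72.6, 88.0 and 88.8 CPM in PARP3-/- cells, the lowest fold change there (-0.06), and SDHC, a membrane anchor, was at 69.6, 69.1 and 70.6 against 76.1, 72.4 and 71.7 CPM, the highest (0.07, SE 0.07, edgeR adjusted p = 0.711). The SDHC groups did not overlap but differed by little, and the SDHB groups overlapped widely. In complex III the lowest was the core protein UQCRC1, at 249.4, 315.1 and 288 CPM in WT and 221.7, 289.4 and 272 in PARP3-/- cells (edgeR log2 fold change -0.12, SE 0.13, adjusted p = 0.775), in a region whose median was -0.22. UQCRHL, at under 1 CPM throughout, was the highest (0.05, SE 0.35). Values below 0 were the rule in this complex, in 8 of 9 genes, yet the lowest edgeR adjusted p was 0.717. In complex IV the values ran from COX5B at 127.8, 129.4 and 127.9 against 106.7, 126.1 and 123.9 CPM (log2 fold change -0.11, SE 0.09, edgeR adjusted p = 0.644) to COX6A1 at 95.6, 102.7 and 96.3 against 97.0, 106 and 108.1 CPM (0.08, SE 0.08, adjusted p = 0.734). COX5B did not overlap between the genotypes, with PARP3-/- library 1 well below the rest. All 11 tested complex IV genes had intervals within 1.5-fold.

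The 5 genes that did not pass the filter were all rare. COX7B2, which is mainly known from testis, had 10, 8 and 9 counts in WT and 0, 0 and 0 in PARP3-/- libraries. With the mean level allowed by 3 counts in each PARP3-/- library as a floor, it was at least 2.78-fold lower. DESeq2 called it (adjusted p = 0.00272), and edgeR did when no filter was applied (adjusted p = 0.00657), at a WT mean of 0.228 CPM. COX6B2 had 2, 3 and 10 counts in WT and 9, 7 and 10 in PARP3-/- cells. ATP5J2-PTCD1 had 2, 3 and 4 against 4, 8 and 1, ATP5L2 had 4, 7 and 6 against 7, 8 and 2, and COX7A1 had 1, 0 and 0 against 0, 0 and 0. Of the 5, only COX7B2 separated the genotypes, and the others overlapped.

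Levels of these genes differed between replicate numbers in the same way in both genotypes. In library 1 of both genotypes most of them were at their lowest. Library 1 was below both other libraries for 57 of 79 genes in WT (72.2%), 69 in PARP3-/- cells (87.3%) and 56 in both (70.9%), compared with 42.0%, 43.0% and 32.3% of all genes tested. The median difference of library 1 from the mean of the other libraries was -0.13 on the log2 scale in WT and -0.17 in PARP3-/- cells, whereas over all genes it was 0.0105 and 0.0007. The lowering was seen in every complex and was deepest in complex V, with medians of -0.25 and -0.23, and mildest in complex IV in WT, with -0.06. Complexes I, II and III had -0.12, -0.14 and -0.12 in WT and -0.13, -0.21 and -0.20 in PARP3-/- cells. Library 1 also had the lowest total of its genotype, with 35582892 and 29692065 counts. SYT1, a synaptic vesicle gene, moved the opposite way, with 108, 45.5 and 43.6 CPM in WT libraries 1 to 3 and 85.8, 51.2 and 52.6 CPM in PARP3-/- libraries 1 to 3. What depth, culture or handling had to do with this pattern was not tested.

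The genes closest to the mean pattern of all 79 over the 6 libraries were ATP5G1 (Pearson's r = 0.998), UQCR10 (0.992), ATP5D (0.988), SDHB (0.984) and NDUFB10 (0.978), so that 4 of the 5 complexes were represented. The mean itself includes each gene. ATP5G1 illustrates it, at 93.5, 131.8 and 115.8 CPM in WT and 80.1, 122.4 and 123.2 CPM in PARP3-/- cells, with library 1 lowest in both and the genotypes overlapping. An r above 0.9 was found for 28 genes and a negative r for 11. The lowest was NDUFA4L2 (-0.782), at 2.46, 1.31 and 1.44 CPM in WT and 2.09, 1.64 and 1.88 CPM in PARP3-/- cells, with library 1 the highest of each genotype.

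**Figure D5:**
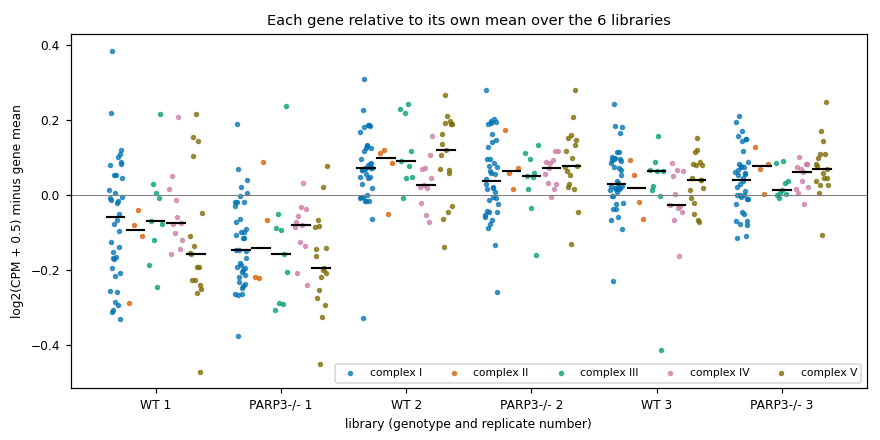
Log2(CPM + 0.5) of each of the 79 genes minus its own mean over the 6 libraries, by library and complex, with black bars for the median of each complex. The bars of libraries 1 lie below 0 in all 5 complexes of both genotypes, where 56 genes (WT) and 69 genes (PARP3-/-) are below their own mean, compared with 18 to 25 genes in the other libraries.

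Genes that work with these subunits were read from lists. The 6 further subunits or carriers outside the naming rule were all below 0 and 0 were called in the main fit. CYCS, the cytochrome c that carries electrons between complexes III and IV, was at 127.9, 177 and 160.2 CPM in WT and 94.4, 118.9 and 120.1 CPM in PARP3-/- cells. All PARP3-/- values lay below all WT values (edgeR log2 fold change -0.48, SE 0.15, adjusted p = 0.154, and 8.4e-05 with the block), a larger difference than that of any subunit gene tested. Its region had a median of -0.15 over 58 genes. With the block NDUFAB1, the mitochondrial acyl carrier protein that is also a complex I subunit, was lower too (-0.16, adjusted p = 0.0462).

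Assembly factors, which build the complexes but do not stay in them, held the only calls of the main fit among the lists of respiratory chain and mitochondrial genes. Of 16 complex I assembly factors 1 was lower (background 3.33% of genes tested) and 0 higher (background 1.36%). NDUFAF3, an early-acting factor, was at 52.5, 46.7 and 46.9 CPM in WT and 36.7, 37.0 and 35.5 CPM in PARP3-/- cells, with no overlap (edgeR log2 fold change -0.42, SE 0.08, adjusted p = 0.0295). Its region on chromosome 3 had a median of -0.22 over 172 genes. Of 32 tested factors for complexes II to V 1 was lower and 0 higher. ATPAF1, which chaperones the beta subunit of ATP synthase, was at 45.9, 52.3 and 52.9 CPM in WT and 32.1, 33.0 and 32.5 CPM in PARP3-/- cells (edgeR log2 fold change -0.63, SE 0.08, adjusted p = 0.00686). The groups did not overlap, and the region of ATPAF1 had a median of -0.0053 over 98 genes. ATP5B, the subunit it chaperones, was at 548.9, 657.6 and 607 CPM in WT and 553.1, 662.1 and 647.4 in PARP3-/- cells, overlapping (0.04, SE 0.11, edgeR adjusted p = 0.94). With the block the counts became 4 lower and 0 higher of 16, and 6 lower and 1 higher of 32, beside backgrounds of 12.5% lower and 11.8% higher. The higher one was COX20, a complex IV chaperone (0.31, edgeR adjusted p = 0.127, and 0.00525 with the block), and the highest of the complex I factors was TMEM126B (0.06).

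Upstream regulators and the tricarboxylic acid cycle, which supplies NADH and succinate, had 0 genes called in the main fit, of 19 tested regulators of mitochondrial biogenesis and 14 cycle enzymes. With the block 1 regulator was lower and 4 were higher, and 3 enzymes were lower and 0 higher, beside the same backgrounds of 12.5% and 11.8%. PPARGC1A, the coactivator known as a master regulator of mitochondrial biogenesis, was the highest, at 1.15, 0.429 and 0.366 CPM in WT and 1.96, 0.943 and 1.01 CPM in PARP3-/- cells (log2 fold change 1.00, SE 0.50, edgeR adjusted p = 0.402, and 0.00658 with the block). Each PARP3-/- value was above the WT value of the same number, but WT library 1 exceeded PARP3-/- libraries 2 and 3. PPARGC1B, a related coactivator, was the lowest (-0.44, SE 0.20, edgeR adjusted p = 0.345). NRF1, which encodes the factor named above, was at 13.97, 17.87 and 15.95 CPM in WT and 12.98, 17.02 and 15.8 in PARP3-/- cells, and TFAM, which packages and transcribes mitochondrial DNA, at 111.8, 169.5 and 155.5 against 114, 151.7 and 146.9 CPM. Both overlapped, and like the subunits both had library 1 lowest. Among the cycle enzymes the ends were subunits of the same enzyme, isocitrate dehydrogenase, with IDH3B lowest (-0.24, SE 0.12, edgeR adjusted p = 0.413, and 0.00477 with the block) and IDH3A highest (0.15, SE 0.17, adjusted p = 0.801).

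The subunits encoded by mitochondrial DNA were read for contrast. Of 13 genes 12 were tested and 0 were called by edgeR with or without the block, with 11 of the 12 below 0 and a median log2 fold change of -0.16. Their summed level was 599.3, 335.6 and 402.6 CPM in WT and 467.3, 303.4 and 414.8 CPM in PARP3-/- cells. Library 1 was the highest of each genotype, the opposite of the nuclear genes. MT-CO3, a core subunit of complex IV, was the most abundant at 264.9, 155.9 and 190.6 against 202.8, 137.9 and 189.9 CPM, while MT-ND1 and MT-ND2, core subunits of complex I, were at 1.45 to 3.73 CPM. These totals were 303.4 to 599.3 CPM beside 8725 to 10150 CPM for the nuclear genes. How reads from the mitochondrial genome were retained or removed is not given in the sources used here, so the level of mitochondrial RNA is not read from them.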

How the data were processed

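RNA of 3 WT and 3 PARP3-/- LN229 libraries was sequenced as single reads. The deposited table holds raw read counts per Ensembl gene, which the authors made with cutadapt 1.10, removal of ribosomal and spike-in reads with Bowtie2 2.2.8, STAR 2.5.3a on hg38 and HTSeq 0.6.1p1 in union mode. The methods describe stranded total RNA depleted of ribosomal RNA, while the labels name polyA RNA. A further 12 columns of normalized values (over all samples) and 3 columns of the authors' comparison (log2 fold change, p and adjusted p) were not used. No row lacked a gene identifier.

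Counts were analysed in R 4.3.3 with edgeR 4.0.16 (TMM, filterByExpr with a minimum count of 10, quasi-likelihood test, Benjamini-Hochberg over all genes tested) on both genotypes without covariates. The study ran DESeq2 with default options. DESeq2 1.42.0 and the settings in the closing section were alternatives, and the script was tested on simulated data. P-values set the difference between genotypes against the spread of the 3 libraries within each. With the block, that spread is what remains after replicate number. Variation between clones is not covered. Deviations from the genotype means correlated at 0.788, 0.680 and 0.383 for equal replicate numbers 1 to 3. WT 2 with PARP3-/- 3 and WT 3 with PARP3-/- 2 also correlated, at 0.576 and 0.367, so replicate 1 is the number set apart most clearly. CPM uses TMM library sizes, and 3 counts (0.0674 to 0.0996 CPM) served as floor, which covers counting error only. Intervals are at the 95% level. Named genes were those called, the extremes of each complex, isoform pairs, the 5 highest per length, those not tested, the 5 of smallest p with the block, the 5 most like the mean, and calls and extremes of related lists. NRF1, TFAM, ATP5B, SYT1, MT genes and the others named were added after their values were seen. The members and lists were chosen with earlier results of these data known. In GENCODE 44, 27 of the 84 genes share exon bases with another gene on the same strand. Promoters came from RefSeq GRCh38.p14. A withheld item is not reported here.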

Additional observations from a re-analysis of the deposited data

How the results depend on the processing

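Counts of subunit genes called, 0 lower and 0 higher in edgeR without a block, rose to 6 and 5 with the replicate block, 3 and 0 with DESeq2, 3 and 3 with DESeq2 and the replicate block, and 3 and 2 with both libraries of replicate 1 left out. One lower gene was called with protein-coding genes only (1), with no filter (1) and with a mean count of at least 50 (1). All genes lower and higher, 571 and 234, became 871 and 475 with DESeq2, 2143 and 2023 with the block, 1346 and 1259 with DESeq2 and the block, 1739 and 1536 without replicate 1, and 76 and 6 at an adjusted p under 0.001 with a log2 fold change beyond 1. With a mean count of at least 50, 331 were lower. The block changed no other call among the named subunit genes.

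With each library left out in turn, subunit calls stayed at 0 and 0, all genes lower ranged from 281 to 606, higher from 49 to 259, and the subunit median from -0.05 to 0.03, below 0 without WT replicate 1 (-0.0513) and above it without PARP3KO replicate 1 (0.0319). Calls over all genes fell most without WT replicate 3 (283 and 49) and PARP3KO replicates 2 (281 and 52) and 3 (305 and 61), and higher calls were 98 without WT replicate 2. Of 37 named genes 16 changed sign in at least 1 such fit, none of them called in any edgeR fit except ATP5J2. Their ranges were SDHB -0.11 to 0.03, UQCRHL -0.23 to 0.25, COX4I1 -0.0372 to 0.0336, COX6B1 -0.0261 to 0.0855, COX7B -0.0146 to 0.12, COX8A -0.14 to 0.0325, NDUFA4L2 -0.0659 to 0.43, UQCRH -0.0813 to 0.0245, ATP5G1 -0.19 to 0.11, ATP5G3 -0.23 to 0.0112, ATP5A1 -0.031 to 0.0651, ATP5B -0.0273 to 0.12, UQCR10 -0.18 to 0.0542, ATP5D -0.12 to 0.11, NDUFB10 -0.0524 to 0.0824 and ATP5J2 -0.0215 to 0.32. Without replicate 1 of both genotypes COX4I1 (0.0366), UQCRH (0.0056) and NDUFB10 (0.0395) turned positive, as NDUFB10 did with DESeq2 (0.0028). The cause of these changes was not tested. With 3 libraries a group the median SE of 0.0972 on the log2 scale limits what could be detected, and 5 genes had intervals beyond 1.5-fold.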

Other observations

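Processed pseudogenes that carry the names of these subunits were listed separately from their parents. There were 73 of them, with 0.0837% to 0.13% as many counts as the 84 genes in the same library. Of these 4 passed the filter and 0 were called by edgeR, against 79 and 0 of the genes themselves. ATP5A1P1 was the most abundant, at 117, 359 and 256 counts in WT and 72, 207 and 189 counts in PARP3-/- libraries, with library 1 lowest in both genotypes as for the subunit genes. NDUFV2P1 had 50, 42 and 52 counts in WT and 35, 64 and 44 in PARP3-/- cells. COX6A1P2 had 47 to 58 and 39 to 54 counts, and NDUFA9P1 had 6 to 11 and 9 to 12. Short reads that fit a parent and its copy equally cannot be assigned, so counts of parents with such copies are uncertain.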
